A study of Saccharomyces cerevisiae BY4741 with 2 samples.

Results

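The ATG genes encode the core and selective machinery of autophagy in budding yeast, and they were taken here as every row of the sense-strand count table whose standard name in the R64 annotation of Saccharomyces cerevisiae is ATG followed by a number. This rule gave 37 of the 7134 rows, which are all 37 such names in that annotation, and it used no measured value. Genes of the pathway that bear another standard name, among them VPS30 (also called ATG6), are given further on as a separate list.

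In autophagy, a cup-shaped membrane grows around cytoplasm or an organelle, closes to an autophagosome and fuses with the vacuole, where the contents are degraded. The Atg1 kinase complex starts the process, the lipid kinase complex I and the membrane protein Atg9 build the site, and a pair of ubiquitin-like systems attaches the small protein Atg8 to the membrane lipid phosphatidylethanolamine. Receptor proteins that bind Atg8 or Atg11 then select mitochondria, peroxisomes, endoplasmic reticulum or vacuolar enzymes as cargo. In yeast growing on rich glucose medium the bulk pathway is held low by TORC1 and protein kinase A, while the cytoplasm-to-vacuole targeting (Cvt) pathway, which delivers vacuolar enzymes, runs all the time.

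RNA was sequenced from 2 strains labelled BY4741 that were dividing in rich medium with glucose and harvested at mid-log phase. Each strain had 2 libraries of ribosomal RNA-depleted total RNA, made with a kit that keeps the strand. The wild type (MATa) carries his3Δ1, leu2Δ0, met15Δ0 and ura3Δ0. In the deletion strain, also MATa, a KanMx cassette replaces DBP2, which encodes a DEAD-box RNA helicase, and the markers are ura3Δ0, leu2Δ0, his3Δ0, TRP1, met- and lysΔ. The strains thus differ at other loci besides DBP2, and the deletion cannot be told apart from the rest of the background. The labels do not say whether separate cultures were used for the libraries, so a p-value here reflects the library-to-library spread, and that spread may be technical alone.

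The libraries are called wild type 1 and 2 and deletion 2 and 3 after the table's columns. They held 10860000 and 12586037 counts in wild type against 36028173 and 24961576 in the deletion strain. Depth thus went with strain, and its part in the differences was not tested. Raw counts are not on the same scale in the strains. For DBP2 itself the counts were 7320 and 9662 (wild type) against 66 and 237 (deletion), the direction the labels give. Marker genes also differed, with 8 and 1 against 1772 and 1243 counts for MET17 and 2373 and 2809 against 8 and 5 for LYS2. Levels below are CPM, counts scaled to a library of 1000000 with TMM factors, and a gene was called higher or lower in the deletion strain at an adjusted p below 0.05 in edgeR's quasi-likelihood test, adjusted over all 6124 features tested. Fold changes are therefore relative to the typical gene: scaling by library totals alone raised the median log2 fold change of all features by 0.45, and the share of calls that were higher went from 50.6% to 81.1%. In bulk RNA, fewer RNA molecules per cell and fewer cells with the RNA cannot be told apart.

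All 37 ATG genes passed the filter on low counts and were tested. Of these, 11 were higher in the deletion strain, 2 were lower and 24 were not called. The higher genes were those for 6 of 9 selective receptors and organelle-specific factors (ATG39, ATG33, ATG32, ATG36, ATG34 and ATG45), the vacuolar hydrolase genes ATG15 and ATG42, the kinase gene ATG1, the ubiquitin-like modifier gene ATG8 and the lipid-binding protein gene ATG21. The lower genes, ATG12 and ATG7, both belong to the conjugation systems. Among all features, 21.2% were called higher and 20.7% lower (41.9% in either direction). The CPM of the strains did not overlap for 25 of the 37 genes, 20 of them higher and 5 lower in the deletion strain, against 38.3% of all features for higher and 36.3% for lower.

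Part of the difference between the ATG genes and all features went with abundance. Across all features the median log2 fold change fell from 0.51 in the second lowest of 10 equal abundance groups to -0.54 in the highest, and 30 of the 37 ATG genes lay in groups 2 to 5. Within those groups 10 of the 30 ATG genes were higher and 2 lower, with a median log2 fold change of 0.38. All 2449 features of the same groups had 29.1% higher and 10.7% lower, with a median of 0.32. The share of ATG genes called higher was thus near that of other features of like abundance. The median over all 37 ATG genes was 0.32, against 0.01 over all features.

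**Figure D1:**
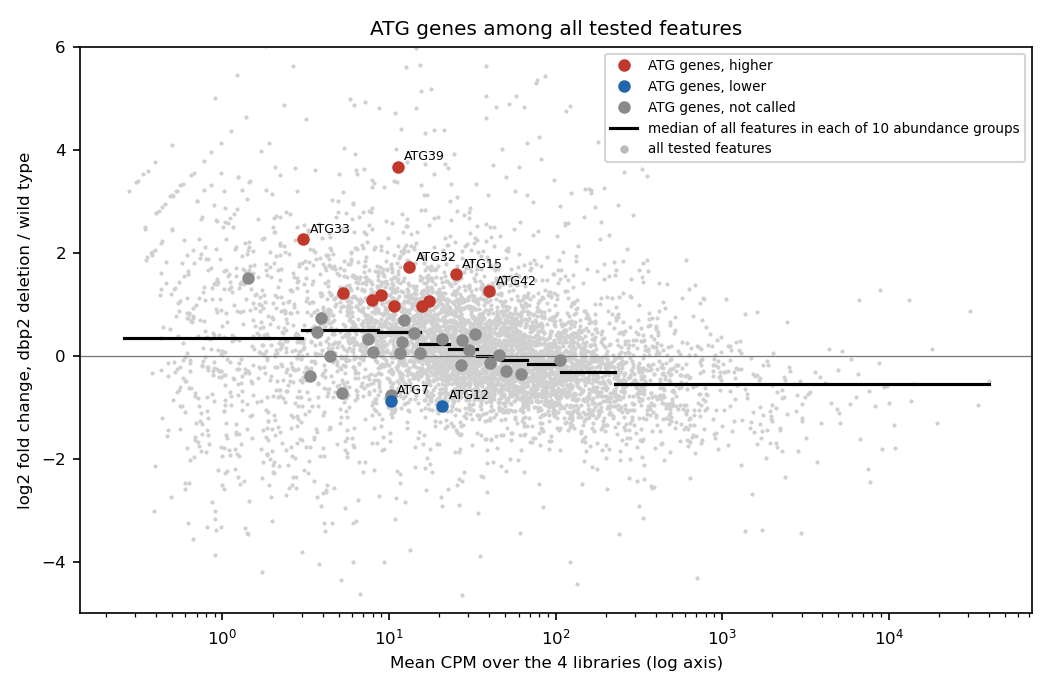
Log2 fold change between the strains (vertical axis, drawn from -5 to 6, which leaves out 24 features) against the mean CPM of the 4 libraries (log axis) for all tested features in grey and the 37 ATG genes in colour, with black bars for the median of each of 10 abundance groups. Most ATG genes lie in the low to middle range, where the bars are above 0, and ATG39 (3.68) and ATG33 (2.27) are the highest of them.

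Levels per length in wild type spanned a wide range. As CPM per kilobase of coding length, the median ATG gene had 8.01 in wild type and 11.4 in the deletion strain, while the median of 6011 protein-coding genes was 22.4 in wild type. The median ATG gene stood at percentile 27.0 of these genes in wild type and 27.4 in the deletion strain. ATG44, a short gene for a protein that divides mitochondrial membranes in mitophagy, was highest in wild type (82.6 ± 9.83 CPM per kilobase; SD, n = 2), followed by ATG5 (78.4 ± 10.2), ATG27 (51.5 ± 2.96) and ATG12 (49.4 ± 11.7). ATG44 was slightly above ATG5 in both wild-type libraries (75.6 against 71.2 and 89.5 against 85.6), while ATG27 and ATG12 changed order between the libraries. Neither pair was tested. The lowest were ATG33 (1.78 ± 0.337), ATG39 (1.36 ± 0.245) and ATG29 (1.12 ± 0.629), with the libraries of ATG29 spanning those of ATG39 and reaching those of ATG33. In the deletion strain ATG39 moved from place 36 to place 14 in the order (17.6 ± 6.96 CPM per kilobase), ATG42 from 11 to 4, ATG15 from 19 to 9 and ATG8 from 12 to 6. ATG12 went from 4 to 8, ATG7 from 22 to 35 and ATG17 from 17 to 33.

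**Figure D2:**
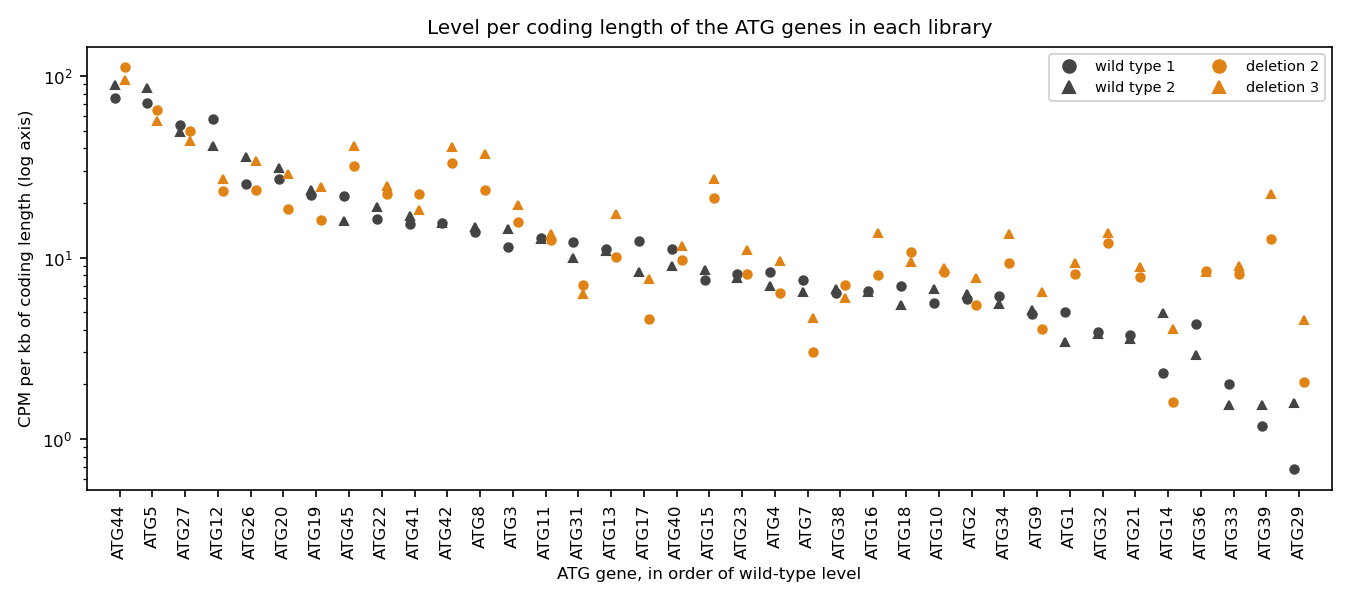
CPM per kilobase of coding length (log axis) of the 37 ATG genes in each of the 4 libraries, in order of the wild-type mean; black marks are wild type and orange marks the deletion strain. The orange marks of ATG39 stand far above the black ones at the low end, and those of ATG12 and ATG7 lie below.

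Selective receptors and organelle factors held the largest rises. ATG39 (YLR312C, chromosome XII, 757637 to 758833, minus strand, 1 coding part) encodes the receptor for autophagy of the nuclear envelope and perinuclear endoplasmic reticulum. It had 13 and 20 counts in wild type, or 1.42 and 1.83 CPM, and 15.1 and 26.9 CPM in deletion 2 and 3. Both deletion libraries were far above both wild-type libraries, and deletion 3 was the highest. The rise was 12.8-fold (log2 fold change 3.68, SE 0.40, adjusted p = 2.10e-04 in edgeR's quasi-likelihood test). ATG40, which encodes the other receptor for the endoplasmic reticulum, had 8.61 and 6.96 CPM in wild type against 7.49 and 8.87 in the deletion strain. Its libraries overlapped between the strains (log2 fold change 0.07, SE 0.29). Whether the changes of ATG39 and ATG40 differ was not tested.

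Of the mitophagy genes ATG33, ATG32 and ATG44, the first 2 were higher. Among all features 21.2% were higher, and 29.1% in abundance groups 2 to 5, where these genes lay. ATG33 (YLR356W, chromosome XII, 840321 to 840914, plus strand), for a mitochondrial outer membrane protein, had 11 and 10 counts in wild type (1.20 and 0.916 CPM) against 196 and 161 in the deletion strain (4.81 and 5.35 CPM). The strains were well apart, and the rise was 4.81-fold (log2 fold change 2.27, SE 0.41, adjusted p = 0.00249). ATG32 (YIL146C, chromosome IX, 74184 to 75773, minus strand) encodes the mitophagy receptor of the same membrane. Its CPM were 6.21 and 6.04 in wild type against 19.0 and 21.6 in the deletion strain, close within each strain, and it rose 3.32-fold (log2 fold change 1.73, SE 0.26, adjusted p = 0.00107). ATG44 itself, with 16.8 and 19.9 CPM against 24.9 and 21.3, was not called (adjusted p = 0.281).

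ATG36, the receptor for peroxisomes (chromosome X, 82095 to 82976, minus strand), had 3.82 and 2.56 CPM in wild type against 7.44 and 7.31 in the deletion strain. It rose 2.32-fold (log2 fold change 1.22, SE 0.34, adjusted p = 0.0188), and it was no longer called when wild type 2 (adjusted p = 0.0719) or deletion 2 (0.0783) was left out. ATG45 encodes the receptor for glycogen, and its CPM were 12.4 and 9.07 against 18.2 and 23.6. It rose 1.95-fold (adjusted p = 0.0203), and was not called when wild type 2 (0.0786) or deletion 3 (0.123) was left out.

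The neighbouring genes ATG34 and ATG19 lie in tandem on chromosome XV with 1774 bases between them. Atg19 carries vacuolar aminopeptidase and mannosidase in the Cvt pathway, and Atg34 carries the mannosidase during starvation. ATG34 had 7.63 and 6.87 CPM in wild type against 11.5 and 16.7 in the deletion strain, and it rose 1.95-fold (adjusted p = 0.0279, but 0.0786 with wild type 2 left out and 0.241 with deletion 3 left out). ATG19 had 27.7 and 29.4 CPM in wild type against 20.0 and 30.7 in the deletion strain. These overlapped (log2 fold change -0.17, SE 0.25, adjusted p = 0.613), and the difference between the pair was not tested. On the same strand 382 bases upstream of ATG34 lies PHM7, whose log2 fold change was 4.02; its part in the counts of ATG34 was not tested. Of the 9 genes in this group 6 were higher, against 3 with abundance-dependent offsets or without wild type 2 and 4 without deletion 3. In the same group none was called lower by edgeR, with 0 lower at an unadjusted p below 0.05 and 0 by DESeq2. Among all features 21.2% were higher and 20.7% lower in the main fit, and 18.3% and 19.1% with the offsets. All 9 genes lay in abundance groups 2 to 5, where 29.1% of features were higher and 10.7% lower in the main fit.

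**Figure D3:**
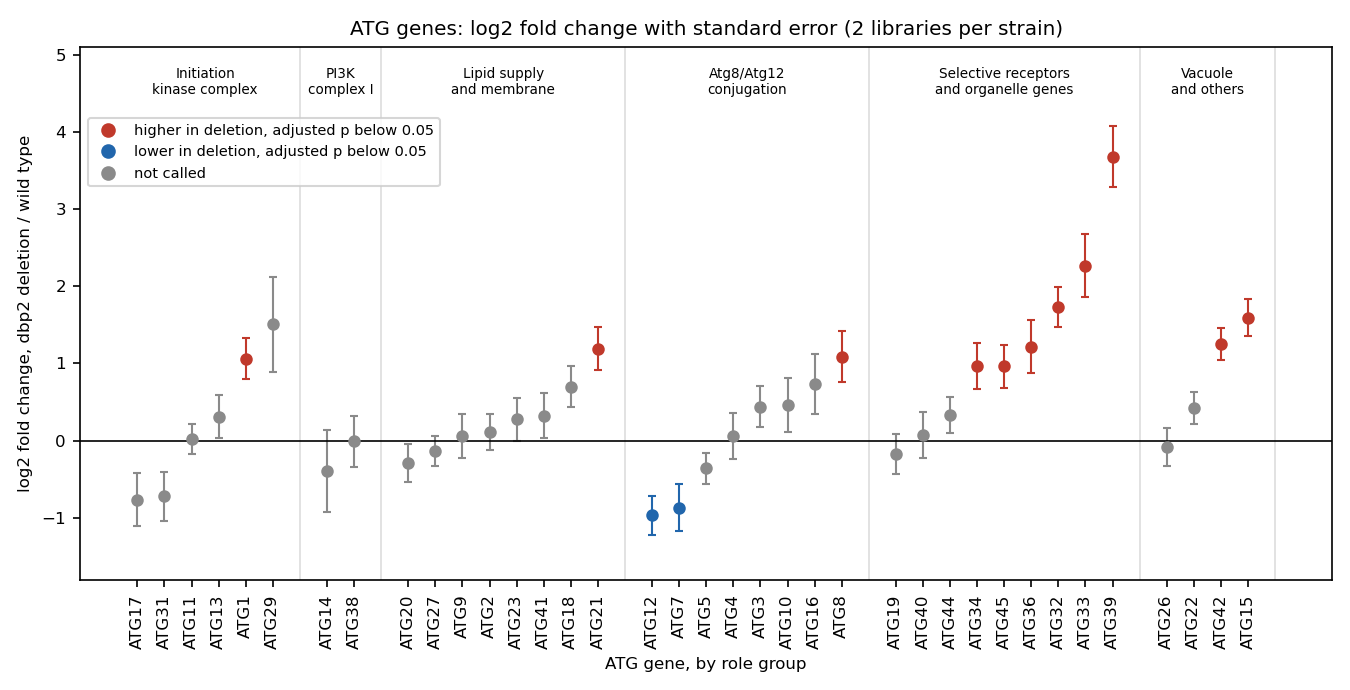
Log2 fold change with its standard error (n = 2 libraries per strain) for the 37 ATG genes, grouped by role and ordered within each group; red marks were called higher, blue marks lower and grey marks were not called. The selective receptor group holds 6 red marks, the conjugation group has marks on both sides of 0, and no group other than conjugation holds a blue mark.

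Genes that act in the vacuole followed. ATG15 (YCR068W, chromosome III, 237214 to 238776, plus strand) encodes the lipase that breaks the membrane of autophagic bodies. It had 11.8 and 13.3 CPM in wild type against 33.2 and 42.4 in the deletion strain. The strains did not overlap, and the rise was 3.01-fold (log2 fold change 1.59, SE 0.24, adjusted p = 0.00102). ATG42 (YBR139W, chromosome II, 515664 to 517190, plus strand), a vacuolar carboxypeptidase gene, went from 23.5 and 23.6 CPM to 50.8 and 61.9, a 2.39-fold rise (log2 scale SE 0.21, adjusted p = 0.00170). ATG22, for a vacuolar amino acid exporter, had 25.7 and 30.1 CPM against 35.6 and 39.2 and was not called (adjusted p = 0.134). ATG26, a sterol glucosyltransferase gene, had 91.1 and 129 CPM against 84.8 and 123, values that overlapped almost entirely.

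Of the 6 genes of the initiation complex 1, ATG1, was higher and 0 were lower, against 21.2% and 20.7% of all features. Library totals gave 3 higher and 0 lower (40.9% and 9.52% of all features). Abundance-dependent offsets gave 1 higher and 2 lower (18.3% and 19.1%). ATG1 (YGL180W, chromosome VII, 160065 to 162758, plus strand), the protein kinase that starts autophagosome formation, had 13.4 and 9.25 CPM in wild type against 22.0 and 25.3 in the deletion strain. It rose 2.09-fold (log2 fold change 1.06, SE 0.27, adjusted p = 0.0123). The scaffold genes ATG17 and ATG31 had lower CPM in both deletion libraries than in either wild-type library, 15.5 and 10.4 against 5.72 and 9.53 for ATG17 and 7.19 and 5.86 against 4.17 and 3.72 for ATG31. Neither passed the test (log2 fold changes -0.77 and -0.72, adjusted p = 0.0982 and 0.0974 in edgeR). ATG29, whose protein joins Atg17 and Atg31, had only 4 and 11 counts in wild type (0.436 and 1.01 CPM). In the deeper libraries of the deletion strain it had 54 and 88 counts (1.33 and 2.92 CPM). The log2 fold change of ATG29, 1.51 (SE 0.62, adjusted p = 0.0778 in edgeR), was imprecise at this depth. Leaving out deletion 3 gave 0.84 and leaving out wild type 2 gave 2.299, and it was called without deletion 2 (log2 fold change 1.98, adjusted p = 0.0349) and under library totals (1.96, 0.0172). The last 24 bases of ATG29 overlap SET6 on the other strand. Strand-specific counts are meant to keep these genes apart, and how fully they do was not tested. ATG11, the scaffold of selective autophagy, lay between 44.0 and 47.8 CPM in all 4 libraries (log2 fold change 0.02). ATG13, the regulatory subunit that TORC1 phosphorylates, had 24.7, 24.1, 22.3 and 38.3 CPM. It was called under library totals (log2 fold change 0.77, adjusted p = 0.0361 in edgeR) but not in the main fit.

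ATG14 and ATG38, the subunits particular to lipid kinase complex I, were not called. ATG14 had 2.40 and 5.13 CPM in wild type against 1.64 and 4.18 in the deletion strain, a larger spread within each strain than between them. ATG38 had 4.36, 4.58, 4.84 and 4.05 CPM in the 4 libraries. Among the 8 genes of Atg9 traffic and lipid supply 1, ATG21, was higher and 0 were lower, against 21.2% and 20.7% of all features. Library totals gave 2 higher (40.9% of all features) and abundance-dependent offsets 0 (18.3%). ATG21, a phosphoinositide-binding protein gene that helps place the Atg8 conjugation machinery, went from 5.56 and 5.31 CPM to 11.6 and 13.2, a 2.28-fold rise (log2 scale SE 0.28, adjusted p = 0.00915). Its paralog ATG18, which works with the lipid transfer protein Atg2, had 10.5 and 8.24 CPM against 16.2 and 14.1. These did not overlap, but the gene missed the threshold (log2 fold change 0.70, SE 0.27, adjusted p = 0.0624 in edgeR). Under library totals ATG18 passed (log2 fold change 1.15, adjusted p = 0.00423 in edgeR). The other 6 genes of the group, ATG9, ATG2, ATG20, ATG23, ATG27 and ATG41, had log2 fold changes from -0.29 to 0.32.

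Of the 8 conjugation genes 1 was higher and 2 were lower, near the 21.2% and 20.7% of all features. Library totals gave 3 higher and 0 lower, abundance-dependent offsets 0 higher and 2 lower, and without wild type 1 none of the 8 was called (1 in each direction at an unadjusted p below 0.05 in edgeR). ATG8 (YBL078C, chromosome II, 80378 to 80731, minus strand) encodes the modifier that is joined to the growing membrane and that receptors bind. It had 45 and 57 counts in wild type (4.91 and 5.22 CPM) against 342 and 398 in the deletion strain (8.39 and 13.2 CPM). Both deletion libraries were above both wild-type libraries, with deletion 3 the higher. The rise was 2.13-fold (log2 fold change 1.09, SE 0.33, adjusted p = 0.0253), and the adjusted p was 0.0613, 0.0573 and 0.237 with wild type 1, wild type 2 and deletion 3 left out in turn.

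ATG12 (YBR217W, chromosome II, 657832 to 658392, plus strand) encodes the other ubiquitin-like modifier, which is joined to Atg5. It had 32.4 and 23.1 CPM in wild type against 13.1 and 15.3 in the deletion strain, so it fell 1.96-fold (log2 fold change -0.97, SE 0.26, adjusted p = 0.0148). The fall was not called without wild type 1 (0.0588) or deletion 2 (0.0644). ATG7, for the E1 enzyme that activates both Atg8 and Atg12, had 14.3 and 12.2 CPM against 5.69 and 8.80 and fell 1.83-fold (log2 fold change -0.87, SE 0.31, adjusted p = 0.0459). Its adjusted p was 0.114, 0.0712 and 0.336 with wild type 1, wild type 2 and deletion 2 left out in turn, and under library totals neither fall passed (adjusted p = 0.129 for ATG12 and 0.299 for ATG7). The E2 enzyme genes ATG3 (log2 fold change 0.44) and ATG10 (0.46), the protease gene ATG4 (0.06), ATG5 (-0.36) and ATG16 (0.73), whose protein binds the Atg12-Atg5 conjugate, were not called.

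**Figure D4:**
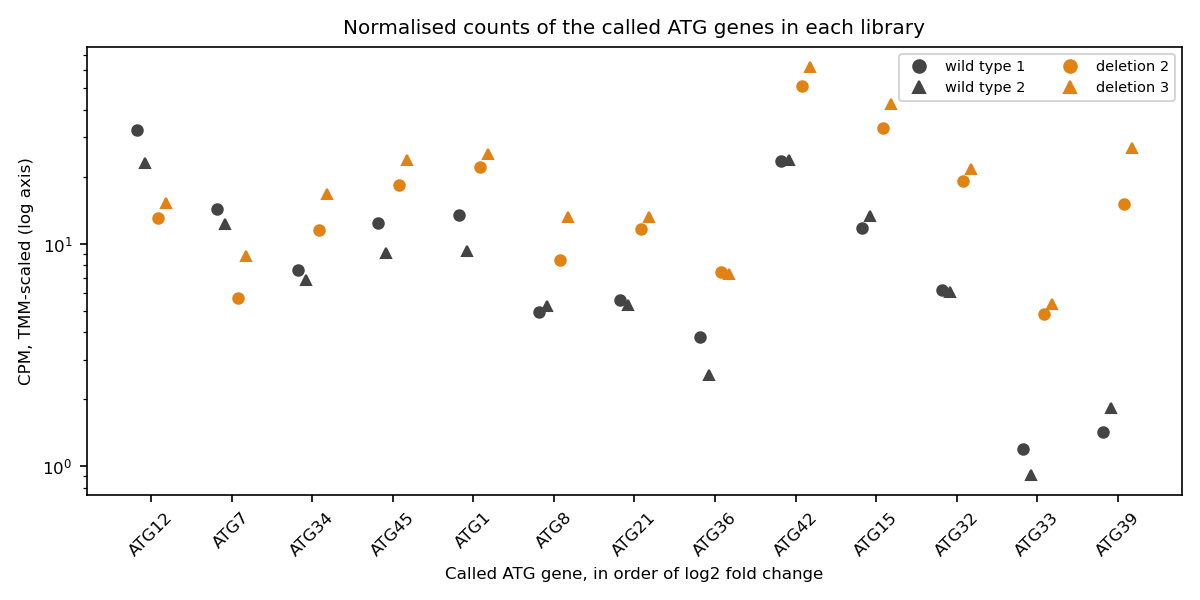
CPM (TMM-scaled, log axis) in each of the 4 libraries for the 13 called ATG genes, ordered by log2 fold change; black marks are wild type 1 (circle) and 2 (triangle), orange marks deletion 2 (circle) and 3 (triangle). For each gene both orange marks lie on one side of both black marks, below for ATG12 and ATG7 and above for the other 11.

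Of the 13 calls, 6 held under all 10 other settings tried, namely ATG1, ATG32, ATG33, ATG39, ATG15 and ATG42. In 4 of these settings 1 library was left out, so that 1 strain had a single library and the spread came from the other strain alone, the lone library being taken to vary alike. With abundance-dependent offsets, which remove the trend with abundance, 6 ATG genes were higher and 4 lower, against 18.3% and 19.1% of all features, and the median of the 37 genes was 0.06. Under those offsets ATG8 (adjusted p = 0.202), ATG21 (0.0771), ATG34 (0.207), ATG36 (0.0972) and ATG45 (0.0815) were no longer called, while ATG17 (log2 fold change -1.23, adjusted p = 0.0142) and ATG31 (-1.22, 0.0130) were called lower. Under library totals 18 were higher (40.9% of all features) and by edgeR 0 lower (9.52% of all features), with 0 lower at an unadjusted p below 0.05. In the authors' deposited table all 13 of these calls passed at the same threshold, and ATG29 (adjusted p = 0.0326) and ATG18 (0.0485) passed as well. That made 13 ATG genes higher and 2 lower there, against 1498 higher and 1264 lower of all 6456 features. The deposited values come from the same study and are not an independent measurement.

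Promoter sequence was read from the R64 genome, which is RefSeq's build of the reference strain, from 250 bases before to 50 bases after the coding start. The promoters of ATG39 and ATG33, which rose most, of the mitophagy receptor gene ATG32, and of ATG8 are shown because these genes differ in the motifs they hold. Capitals mark matches, on either strand, to GGCGGC (the core of the Ume6 site), CCCCT (the stress element of Msn2 and Msn4), GATAAG (the site of GATA factors) and TGACTC (the Gcn4 site). The windows are chrXII:758784-759083 (minus strand) for ATG39, chrXII:840071-840370 (plus) for ATG33, chrIX:75724-76023 (minus) for ATG32 and chrII:80682-80981 (minus) for ATG8.
ATG39: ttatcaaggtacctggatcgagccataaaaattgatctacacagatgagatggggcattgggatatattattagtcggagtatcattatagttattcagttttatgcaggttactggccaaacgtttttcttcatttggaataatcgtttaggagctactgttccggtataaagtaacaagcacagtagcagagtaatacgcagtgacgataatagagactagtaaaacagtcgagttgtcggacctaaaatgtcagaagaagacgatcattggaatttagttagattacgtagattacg
ATG33: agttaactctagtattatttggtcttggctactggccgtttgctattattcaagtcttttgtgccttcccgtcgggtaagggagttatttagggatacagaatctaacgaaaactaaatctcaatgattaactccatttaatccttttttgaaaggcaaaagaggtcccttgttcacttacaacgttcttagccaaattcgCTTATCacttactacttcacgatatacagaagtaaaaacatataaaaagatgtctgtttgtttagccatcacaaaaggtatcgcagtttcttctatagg
ATG32: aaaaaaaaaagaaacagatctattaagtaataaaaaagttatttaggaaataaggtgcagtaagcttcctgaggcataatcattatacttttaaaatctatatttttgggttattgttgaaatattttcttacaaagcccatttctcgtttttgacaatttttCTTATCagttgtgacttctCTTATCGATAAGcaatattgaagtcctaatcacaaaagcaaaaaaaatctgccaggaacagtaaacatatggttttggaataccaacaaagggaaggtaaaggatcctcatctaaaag
ATG8: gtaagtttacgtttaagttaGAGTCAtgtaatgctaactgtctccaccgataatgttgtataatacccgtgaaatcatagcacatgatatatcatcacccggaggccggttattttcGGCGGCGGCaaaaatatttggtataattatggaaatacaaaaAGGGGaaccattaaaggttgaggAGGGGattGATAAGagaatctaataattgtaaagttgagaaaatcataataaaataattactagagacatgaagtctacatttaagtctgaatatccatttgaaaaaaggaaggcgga

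The ATG39 window held none of the 4 motifs, that of ATG33 held 1 match to GATAAG and that of ATG32 held 3, 2 of which lie side by side on opposite strands. The ATG8 window held all 4 motifs, with 2 overlapping matches to GGCGGC, 2 to CCCCT and 1 each to GATAAG and TGACTC. Of the 37 ATG windows, 10 held GATAAG (27.0%, against 14.7% of 6010 protein-coding windows), 7 held TGACTC (18.9% against 7.97%), 8 held CCCCT (21.6% against 21.6%) and 3 held GGCGGC (8.11% against 5.14%). Among the 11 ATG genes called higher, CCCCT was found in the windows of ATG42, ATG34 and ATG8, GATAAG in those of ATG15, ATG33, ATG8 and ATG32, TGACTC in those of ATG42, ATG21 and ATG8, and GGCGGC in those of ATG42 and ATG8. For the 26 ATG genes called lower or not called, 6 windows held GATAAG (23.1%) and 5 held CCCCT (19.2%). TGACTC was in 4 (15.4%) and GGCGGC in 1 (3.85%). The shares among the 11 were 36.4%, 27.3%, 27.3% and 18.2%, in the same order of motifs. Whether a motif goes with the calls was not tested. A match is a description of the sequence, and windows without one say nothing of the factor.

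Genes around the pathway were read from 5 lists of textbook members, whose counts stand against 21.2% of all features higher and 20.7% lower (40.9% and 9.52% under library totals). Of 16 transcription and mRNA factors that act on ATG genes, 7 were higher and 1 lower, with a median log2 fold change of 0.60. Library totals gave 12 higher and 0 lower, and 0 were also lower with abundance-dependent offsets or with wild type 2 or deletion 2 left out. MSN4, a stress activator, had 4.36 and 1.83 CPM in wild type against 47.7 and 32.6 in the deletion strain and rose 13.2-fold (adjusted p = 1.94e-04); its log2 fold change of 3.72 was 4.45 without wild type 1. GAT1, a GATA activator, rose 4.23-fold (adjusted p = 0.00303), from 3.16 and 1.83 CPM to 12.6 and 8.30. RPH1, a demethylase that represses ATG genes, also rose, 2.44-fold (adjusted p = 0.00140), from 29.0 and 35.2 CPM to 72.6 and 84.1. UME6, the repressor of ATG8, had a log2 fold change of 0.74 and was not called (adjusted p = 0.0790).

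Of 26 genes of TORC1, its regulators and other nutrient kinases, 8 were higher and 3 lower (median log2 fold change 0.04). These counts were 12 and 1 under library totals, and 4 were higher without wild type 2 or without deletion 2 and 5 without deletion 3. LST8, a TORC1 subunit gene, fell 2.01-fold (adjusted p = 0.00267), from 137 and 147 CPM to 72.1 and 69.3, and MTC5, of the complex that controls TORC1 at the vacuole, fell 1.80-fold (adjusted p = 0.00739, but 0.141 under library totals). RIM15, a kinase that acts when TORC1 and protein kinase A are low, rose from 21.0 and 16.4 CPM to 45.2 and 37.1 (log2 fold change 1.14, adjusted p = 0.00464). Unlike LST8, the TORC1 subunit genes KOG1 and TCO89 were higher, 1.56-fold and 2.02-fold (adjusted p = 0.0362 and 0.0118 in edgeR). Also higher were the kinase gene SCH9 (2.14-fold, adjusted p = 0.0284) and RTC1 (1.69-fold, 0.0124), while TOR1 and TOR2 were not called.

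Membrane supply and fusion with the vacuole had 1 gene higher and 5 lower of 15 (median log2 fold change 0.02). The 5 lower genes lay in abundance groups 7 to 10, where the share of all features lower ran from 20.1% to 49.8%. Under library totals the balance turned, with 3 higher and 2 lower, and 2 were higher with no filter or with a mean count of 50 or more. YPT7, the Rab GTPase of vacuole fusion, fell 3.03-fold (adjusted p = 7.46e-04), from 454 and 384 CPM to 115 and 162. The SNARE gene YKT6 fell 2.17-fold (adjusted p = 0.00167) and VPS41, a tethering subunit gene, fell 1.89-fold (adjusted p = 0.00437, but 0.0812 under library totals). The 1 gene called higher was VTI1, also a SNARE gene, which rose 2.16-fold (adjusted p = 0.00744 in edgeR).

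Of 10 genes for Cvt cargo and vacuolar hydrolases, 4 were higher and 1 lower (median log2 fold change 0.46), with 7 higher under library totals and 2 without wild type 1. PHO8, the vacuolar alkaline phosphatase whose activation serves in a common autophagy assay, fell 5.95-fold (adjusted p = 3.43e-05), from 603 and 700.2 CPM to 113 and 106. APE3, an aminopeptidase gene, rose 2.45-fold (adjusted p = 9.22e-04), and PRB1, for proteinase B, rose 2.77-fold (adjusted p = 0.00132). APE1, the main Cvt cargo, had a log2 fold change of 0.45 and was not called (adjusted p = 0.196).

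Of the 8 autophagy genes that bear no ATG name, by edgeR 0 were called higher, with 0 higher at an unadjusted p below 0.05 and 0 by DESeq2 (1 under library totals). By edgeR 1 was lower and by DESeq2 2 were. The lower gene was VAC8, a vacuolar membrane protein gene, with 220.3 and 221 CPM against 123 and 150.2 (log2 fold change -0.69, adjusted p = 0.0186, but 0.0715 with wild type 2 left out, 0.152 with deletion 2 left out, 0.196 with abundance-dependent offsets and 0.368 under library totals). SNX4, a sorting nexin gene, had 35.4 and 53.7 CPM against 23.4 and 31.6 (log2 fold change -0.70, adjusted p = 0.0555). It passed by DESeq2 (0.0415), with no filter (0.0407), with offsets (0.0430) and with wild type 1 (0.0167) or deletion 3 (0.0211) left out. The genes VPS34 (for the lipid kinase itself), VPS15 and VPS30, which complete complex I with ATG14 and ATG38, had log2 fold changes of -0.17, -0.32 and 0.07. None was called.

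**Figure D5:**
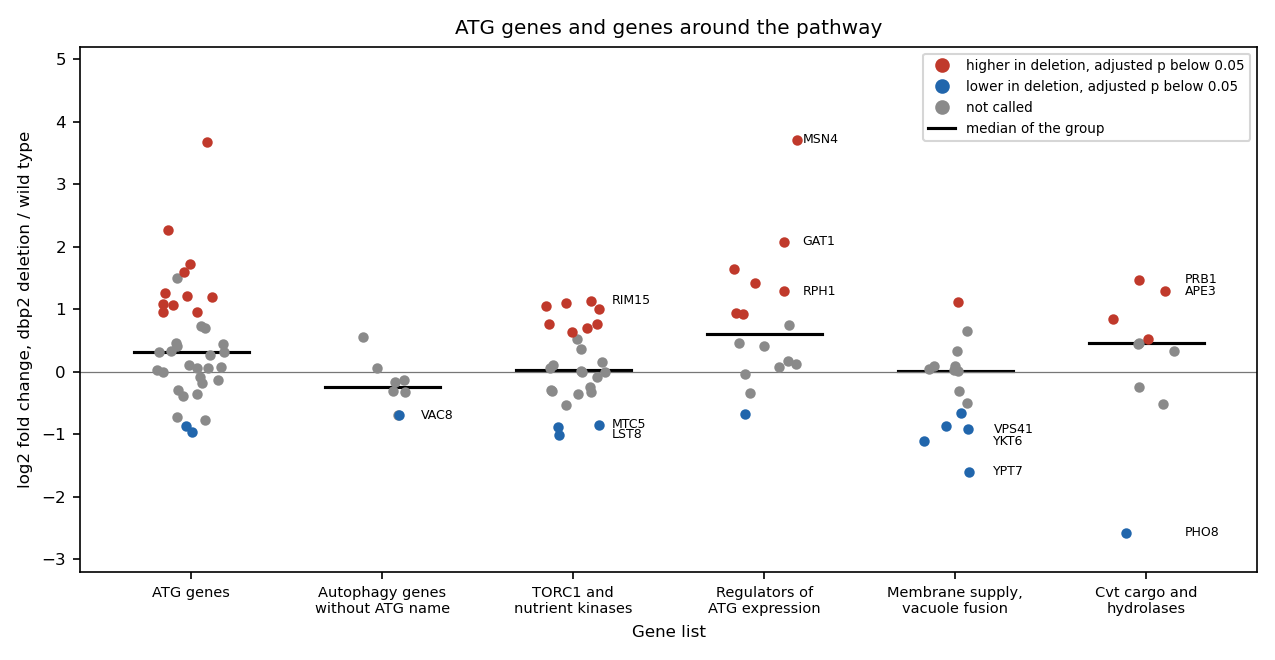
Log2 fold change of the 37 ATG genes and of the members of 5 lists around the pathway; each mark is a gene, red for called higher, blue for called lower and grey for not called, with a black bar at the median and names for up to 3 called genes of each list with the smallest p. MSN4 (3.72) and PHO8 (-2.57) are the extremes of the 5 lists.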

How the data were processed

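For each feature the authors deposited a whole-number sense-strand count that was not normalized, per the file headers, and an edgeR table with a log2 fold change, a mean log2 CPM, a p-value and an adjusted p-value per feature. Per the submitters' processing notes, R64 (sacCer3) was the build. The sources used here name no aligner, counting program or edgeR version.

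Rows were matched to the R64 annotation of the same build by systematic name (6053 rows), symbol (42) or synonym (3). The test was edgeR 4.0.16 (R 4.3.3) with filterByExpr, TMM factors, glmQLFit and glmQLFTest, with Benjamini-Hochberg adjustment over all 6124 features. The standard error is the size of the log2 fold change over the root of F. CPM per kilobase divides by the coding length. DESeq2 1.42.0 served as an alternative, and the offsets were a loess fit (span 0.3) of each library on mean log2 CPM. In the least deep library, wild type 1, 3 counts correspond to 0.276 CPM by library total, before its TMM factor of 0.845. On the TMM scale used for the levels the value is higher: 4 counts of ATG29 in that library were 0.436 CPM. Such limits cover counting error only. Replicate libraries were not duplicates of each other (chi-square over degrees of freedom 40.1 and 111). ATG8, ATG1 and the 10 called members with the largest changes were to be described in full, with up to 3 genes of each list by smallest p; others (ATG18, ATG29, UME6, APE1 and the like) were chosen after their values were seen. The members and lists were chosen with earlier results of these data known.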

Additional observations from a re-analysis of the deposited data

How the results depend on the processing

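EdgeR's RLE factors, no filter, a mean count of 50 or more and DESeq2 kept all 13 ATG calls. Library totals gave 18 ATG genes higher and 0 lower with a median log2 fold change of 0.77, and 2502 features higher and 583 lower. Abundance-dependent offsets gave 6 and 4 with a median of 0.056. Leaving out 1 library gave 7 (without wild type 2) to 11 higher, 0 (without wild type 1 or deletion 2; 1 each at an unadjusted p below 0.05 in edgeR) to 3 lower (without deletion 3), medians of 0.28 to 0.48, and 871 to 1313 features higher and 853 to 1127 lower. The cause was not tested. Changes of sign were seen only among ATG genes that were not called. They were, under library totals, ATG5 (0.085), ATG20 (0.16), ATG27 (0.31), ATG14 (0.066), ATG38 (0.44), ATG19 (0.29) and ATG26 (0.37), with no filter ATG38 (0.0021), and with offsets ATG4 (-0.38), ATG10 (-0.017), ATG9 (-0.29), ATG23 (-0.16), ATG41 (-0.21), ATG40 (-0.43) and ATG26 (0.15). Leaving out 1 library, the log2 fold change ran from -0.26 to 0.33 for ATG4, -0.036 to 0.082 for ATG11, -0.13 to 0.65 for ATG13, -0.32 to 0.36 for ATG9, -0.16 to 0.34 for ATG2, -1.20 to 0.31 for ATG14, -0.14 to 0.11 for ATG38, -0.51 to 0.11 for ATG19, -0.053 to 0.23 for ATG40 and -0.38 to 0.23 for ATG26. No paired analysis was possible because the columns are numbered 1 and 2 for wild type but 2 and 3 for the deletion strain, so the numbers do not map. Depth limits the genes with few wild-type counts, ATG29, ATG33 and ATG39 above all.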
